A study of Homo sapiens with 4 samples.

Results

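MYCN and the MAX network comprise the transcription factors MYCN and MYC, their shared partner MAX, and the other proteins that pair with MAX or with the MAX-like protein MLX. The 10 genes were chosen by symbol, MYCN, MYC, MAX, MXD1, MXD3, MXD4, MXI1, MNT, MGA and MLX, and all 10 were found among 19734 gene rows of the deposited expression table. The study sequenced polyA RNA from BE(2)C:MYCN-ORF, a line of the human neuroblastoma cell BE(2)C that carries an added MYCN open reading frame, so the reading frame is shared by every group. Cells received a control siRNA (siCon) or one against MYCN (siMYCN), each with a control miRNA mimic (miRCon) or a let-7a mimic, and were collected 48 hours later. Each of the 4 combinations, written siCon/miRCon, siCon/let-7a, siMYCN/miRCon and siMYCN/let-7a, is 1 library, so no group has a replicate. The labels name neither the promoter of the reading frame nor the sequence of the siRNA.

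MYC family proteins bind DNA as pairs with MAX, at sites called E-boxes, and mainly activate genes of growth and division. MXD1, MXD3, MXD4, MXI1, MNT and MGA compete for MAX, bind the same kind of site and recruit repressors. MLX pairs with the nutrient sensors MLXIP and MLXIPL and also with some MXD proteins and MNT, which joins both arms. In neuroblastoma, amplified MYCN marks high-risk tumours, and let-7 is a family of tumour-suppressive miRNAs of which MYCN mRNA is a known target.

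The sequences through which let-7a and MAX complexes could meet these genes are shown first. The mature let-7a strand was taken from RefSeq (GRCh38.p14), with its seed, bases 2 to 8, in capitals.
hsa-let-7a-5p: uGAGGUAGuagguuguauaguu
Complements of this seed were searched on the sense strand of the longest GENCODE release 29 3' UTR of each gene, as CTACCTC or TACCTCA, which together form the overlapping 8mer CTACCTCA. Of 19093 genes with a 3' UTR, 15.5% held at least 1 such site, and of the 10 network genes 4 did (MYCN, MXD1, MNT and MGA). The median 3' UTR was 1086 bases over all genes, against 910 in MYCN, 2841 in MNT, 4661 in MXD1 and 5801 in MGA. The 6 network genes without a site had from 476 (MYC) to 3112 bases (MXD4). The shares were not adjusted for length, so they show no excess of sites in the network. The sites below are given 5' to 3' in the sense of the mRNA, with the seed match in capitals.
MYCN first site (chr2:15946580-15946609, plus strand): ttcatacctaagtactgtaataaTACCTCA
MYCN second site (chr2:15946944-15946973, plus strand): ctgcatcttatagcactttgaaaTACCTCA
MXD1 (chr2:69939064-69939093, plus strand): gtctctggaacatttttttttcCTACCTCA
MNT (chr17:2384891-2384920, minus strand): agtggcccccgggcctgcacagaTACCTCA
MGA first site (chr15:41767458-41767487, plus strand): attctgatcatgttaaaatgtgtTACCTCA
MGA second site (chr15:41772973-41773002, plus strand): taccaagaggttgaaggaaccaaCTACCTC
The MXD1 site is the only 8mer in these 10 genes, a class held by 3.66% of all genes with a 3' UTR, and both MYCN sites are of the weaker TACCTCA class. A match is a description of the letters and not a measured site.

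RefSeq promoter windows of 300 bases (250 before to 50 after the start) were matched for 9 of the 10 genes, in 14 windows. The palindromic E-box CACGTG, which reads the same on both strands, was in 7.26% of all 35116 windows and in a window of 3 network genes, MXD4, MNT and MLX. By gene, 8.77% of all genes with a window had it, and 13.4% of the genes tested for expression below that have a window. These stretches are shown because those genes include the ones with the largest siMYCN effects in the network. Those effects were above 0 for MXD4 and MNT and below 0 for MLX, and none was called in the main model below. A link of the effects to the E-box was not tested. The E-box is in capitals and the gene's own strand is given 5' to 3'.
MXD4 (chr4:2262312-2262359, minus strand): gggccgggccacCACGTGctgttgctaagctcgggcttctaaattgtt
MNT (chr17:2401218-2401283, minus strand): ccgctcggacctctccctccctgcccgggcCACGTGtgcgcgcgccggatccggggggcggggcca
MLX (chr17:42567020-42567085, plus strand): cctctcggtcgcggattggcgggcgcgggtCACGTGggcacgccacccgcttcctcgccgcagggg
Relative to the RefSeq start on which each window was set, the E-box began at -238 in MXD4, -193 in MNT and -50 in MLX. Of these genes on GRCh38 (GENCODE), MXD4 spans chr4:2247432-2262294 on the minus strand and MLX chr17:42567068-42573239 on the plus strand. For both, the GENCODE start lies closer to the E-box than the RefSeq start does, so these distances depend on the annotation.

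The deposited values are natural logs of a length-scaled abundance resembling TPM, here back-transformed and called TPM-like values. They summed to between 855811 and 862049 per library, and they carry no read depth, which is unknown here. The labelled cell type was checked against 8 noradrenergic neuroblastoma markers, whose summed level was 1844 to 2553. Of 4 epithelial markers EPCAM was at 1.11 to 1.96 and CDH1, KRT5 and KRT14 were listed at 0, and blood and endothelial markers summed to at most 3.06 and 1.76. The 6 fibroblast markers summed to 243 to 293. Of these LUM was at 83.9 to 123, PDGFRB at 87.7 to 97.3, DCN at 19.1 to 35.1, COL1A1 at 19.5 to 22.9, COL3A1 at 16.8 to 23.3 and COL1A2 at 0.185 or less. Transcripts of the mitochondrial genome made up 31.6% and 32.1% of the siCon libraries and 28.4% and 29.3% of the siMYCN libraries, and rows for spike-in controls summed to 1.16 and 1.31 in siCon and 0.487 and 0.604 in siMYCN libraries, with miRCon and with let-7a in turn. The part of either in the siMYCN results was not tested.

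MYCN RNA exceeded that of every other network gene by more than an order of magnitude in each library. Its mean ranked 43 among 19734 gene rows, and it made up 85.1% to 88.8% of the summed TPM-like values of the 10 genes. Next in mean level came MXD4 (46.0), MLX (35.5), MXI1 (29.1), MXD3 (25.2) and MAX (25.1), and the ranges over the libraries of each neighbouring pair in this order overlapped. MGA (13.2) and MNT (13.1) formed a lower pair with overlapping ranges, MXD1 (4.20) lay below them, and MYC (0.0930) was last. The range of MXD1, 3.59 to 4.74, overlapped neither that of MNT nor that of MYC.

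**Figure D1:**
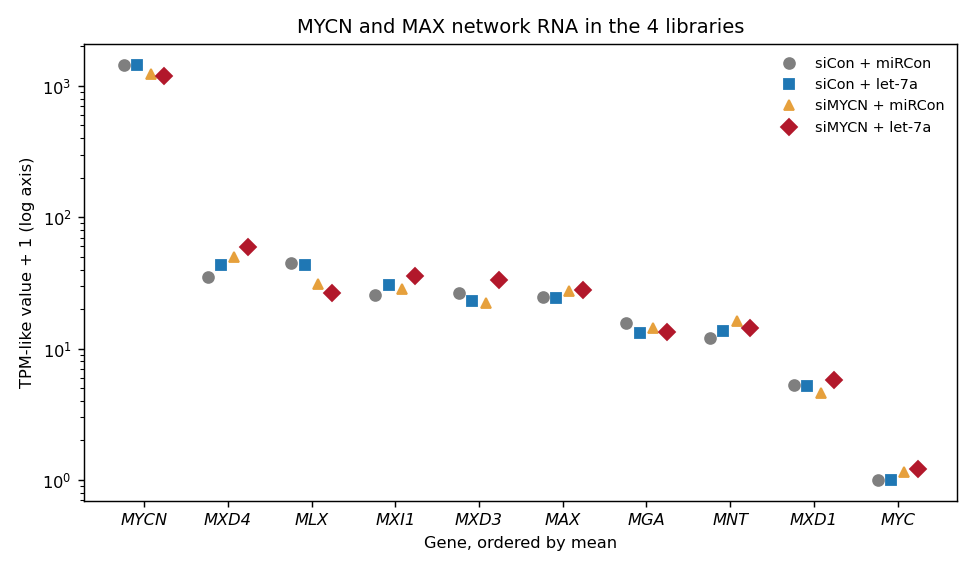
TPM-like value + 1 (log axis) of each network gene in each of the 4 libraries, 1 point a library, ordered by mean. MYCN lies between 1197 and 1449 and every other gene at 58.6 or less.

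MYCN, the siRNA's target, was at 1449 in siCon/miRCon, 1433 in siCon/let-7a, 1238 in siMYCN/miRCon and 1197 in siMYCN/let-7a. Both siMYCN libraries lay below both siCon libraries, with changes of -14.5% and -16.4%. Estimated from all 4 libraries, the log2 fold change was -0.24 ± 0.047 (SE), and the Benjamini-Hochberg adjusted p in limma was 0.0584, so this reduction did not pass over all genes. That p was 0.0441 at a mean of at least 20 and 0.0202 with rescaled values, and ranged from 0.0202 to 0.260 over 5 alternatives. The labelled knockdown was thus a small difference in this RNA value, and siMYCN below names the library label. Whether fewer cells held the RNA or each cell held less cannot be told apart in bulk samples. The gene-level value adds up RNA of the reading frame and of the cells' own gene.

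MYC, the paralog that many neuroblastomas with MYCN amplification silence, was listed at 0 in both siCon libraries and at 0.151 and 0.221 in the siMYCN libraries with miRCon and with let-7a. Such values lie below the filter of a mean of at least 5, and no fold is given. MYCL, the third family member, was also under the filter, at 1.76, 1.92, 3.59 and 1.84 in siCon/miRCon, siCon/let-7a, siMYCN/miRCon and siMYCN/let-7a.

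MAX, the obligate partner of MYCN, was at 23.8 and 23.3 in the siCon libraries and at 26.3 and 27.1 in the siMYCN libraries, with miRCon and with let-7a in turn. The siMYCN libraries were slightly higher without overlap, at a log2 fold change of 0.18 ± 0.12 (SE, 4 libraries; adjusted p = 0.400 in limma). Because MYCN was lower and MAX higher, MYCN RNA per MAX RNA was 60.9 and 61.5 in siCon and 47.1 and 44.1 in siMYCN cells. This ratio of TPM-like values describes RNA and not protein.

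Each siRNA and mimic effect was estimated in 1 additive limma model over the 9324 genes with a mean of at least 5, in which the departure from additivity stands in for replicate error. Of the 10 network genes, 8 passed this filter, and MYC and MXD1 did not. For siMYCN the model called 193 genes higher and 127 lower at an adjusted p of 0.05, which is 2.07% and 1.36% of genes tested, and 0 of the 8 network genes in either direction. Without limma's trend, or with no filter on low values, limma called 0 higher and 0 lower, with smallest adjusted p-values of 0.129 and 0.193 and an unadjusted p under 0.05 for 2221 and 2791, so every siMYCN call named below was lost there. At an unadjusted p under 0.05, 2461 of all genes and 3 of the 8 passed in limma, MLX, MYCN and MXD4. A rule of size, which asks for 1.5-fold or more with 1 sign in each pair, held for 2.85% of genes in the higher and 1.61% in the lower direction, and for 0 network genes. After rescaling by median ratios the split of calls turned, to 343 higher and 408 lower.

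The siMYCN libraries did not overlap the siCon libraries for 5 of the 8 genes. MAX, MXD4 and MNT were higher, which makes 3 of 8, where 35.6% of all genes tested were higher without overlap. MYCN and MLX were lower, which makes 2 of 8, where 21.1% of all genes were. These shares are close to those of all genes, so the count is no result about the network.

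Among the competitors of MYCN for MAX, MXD4 had the siMYCN estimate over both pairs that was farthest from 0, while in the let-7a pair alone MXD3 differed more (0.52 against 0.46). MXD4, a repressor of the MXD family found mainly in differentiating cells, was at 34.4 in siCon/miRCon and 42.3 in siCon/let-7a. It was at 48.6 in siMYCN/miRCon and 58.6 in siMYCN/let-7a. Both siMYCN libraries were above both siCon libraries, and within each siRNA the let-7a library was the higher. The siMYCN effect was 0.49 with miRCon and 0.46 with let-7a, or 0.47 ± 0.098 (SE) over both pairs, with an adjusted p of 0.0634 in limma. At a mean of at least 20 that p was 0.0466, and over all 5 alternatives it ranged from 0.0466 to 0.141.

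MXI1, another MXD family repressor, was at 24.4 and 27.7 in the miRCon libraries and at 29.5 and 34.6 in the let-7a libraries, with siCon and with siMYCN in turn. The let-7a libraries were higher without overlap. Its siMYCN effect was 0.20 ± 0.11 (SE; adjusted p = 0.326 in limma).

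MXD3, the family member linked to dividing cells, was at 25.3 in siCon/miRCon, 22.1 in siCon/let-7a, 21.3 in siMYCN/miRCon and 32.2 in siMYCN/let-7a. The library with both treatments stood above the other three, which lay close together. Its siMYCN effect was thus -0.24 with miRCon and 0.52 with let-7a, and its let-7a effect -0.19 with siCon and 0.58 with siMYCN. The difference between the let-7a effects was 0.77 on the log2 scale and has no test with 1 library a group. Of the 2292 genes with a mean from 20 to 40, 2.84% differed by at least as much in either direction. A difference of 2-fold or more was reached by 1.16% of all genes in the higher and 1.23% in the lower direction, and by 0 network genes.

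MXD1, the founding member of the family, was the least abundant repressor, at 4.26 and 4.21 in siCon and 3.59 and 4.74 in siMYCN cells without and with let-7a. The groups overlapped for both treatments. The gene holds the single 8mer let-7 site of the network, and its let-7a effect was -0.015 with siCon and 0.32 with siMYCN.

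MNT, a widely expressed MAX partner that opposes MYC, was at 11.1 and 12.6 in siCon and 15.2 and 13.4 in siMYCN cells without and with let-7a. The siMYCN effect was 0.43 with miRCon and 0.085 with let-7a, and 0.26 ± 0.17 (SE; adjusted p = 0.388 in limma) over both pairs. The pairs thus differed more than the estimate itself.

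MGA, a large protein that pairs with MAX and scaffolds a Polycomb complex, was at 14.7 and 13.5 in the miRCon libraries and at 12.2 and 12.3 in the let-7a libraries, with siCon and with siMYCN in turn. It was lower with let-7a without overlap, and its siMYCN effect was -0.052 ± 0.15 (SE; adjusted p = 0.859 in limma).

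The 6 MAX competitors summed to 114 and 123 in siCon and to 130 and 156 in siMYCN cells without and with let-7a. MYCN RNA per competitor RNA was 12.7 in siCon/miRCon, 11.7 in siCon/let-7a, 9.54 in siMYCN/miRCon and 7.67 in siMYCN/let-7a. It was lowest in the library with both treatments, where MXD4, MXI1 and MXD3 were all at their highest. Within the MXD family, MXD4 supplied 38.9% to 48.1% of the summed TPM-like values.

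**Figure D2:**
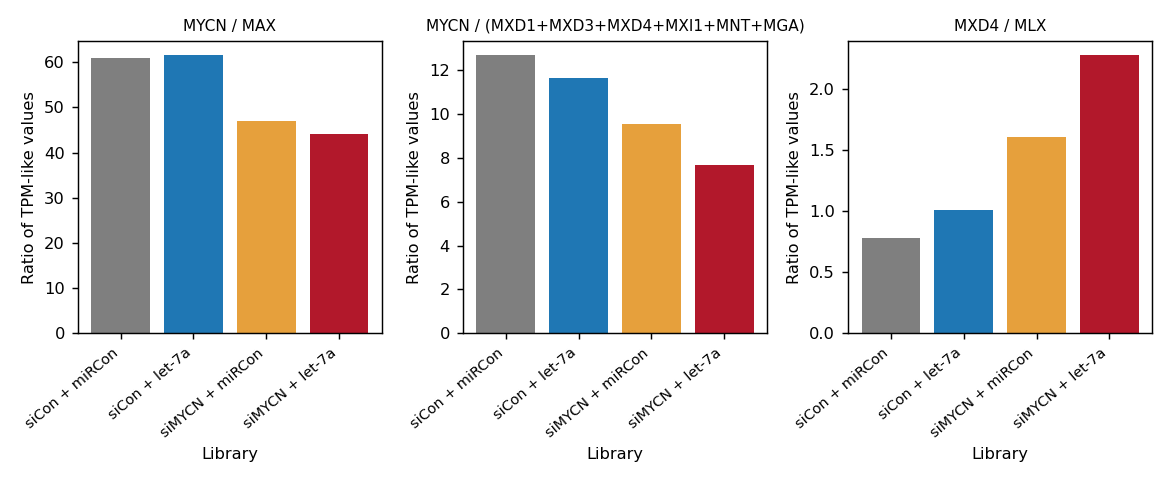
Ratios of TPM-like values in each of the 4 libraries (bars from 0, 1 library each, no error available): MYCN per MAX, MYCN per summed MAX competitors, and MXD4 per MLX. MYCN per competitor is 12.7 with neither treatment and 7.67 with both, and MXD4 per MLX is 0.778 and 2.28. MXD4 and MLX have the highest and lowest siMYCN estimates of the network genes tested, so a shift of their ratio with siMYCN follows from that choice.

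MLX, the centre of the nutrient-sensing arm, showed the siMYCN estimate farthest from 0 in the network. It was at 44.2 in siCon/miRCon and 42.0 in siCon/let-7a, and at 30.2 in siMYCN/miRCon and 25.8 in siMYCN/let-7a. Both siMYCN libraries were below both siCon libraries, and the log2 fold changes were -0.53 and -0.68. Over both pairs it was -0.61 ± 0.11 (SE, 4 libraries; 95% interval -0.89 to -0.33), with an adjusted p of 0.0552 in limma. That p was 0.0404 at a mean of at least 20 and 0.0230 with rescaled values, and ranged up to 0.132 over 5 alternatives.

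MLXIP, the MLX partner also called MondoA, did not share that pattern, at 58.3 and 60.9 in siCon and 63.6 and 55.1 in siMYCN cells without and with let-7a (0.123 and -0.142 as log2 fold changes). MLXIPL was at 0.0381 or less in every library. MLX per MLXIP was 0.757 and 0.689 in siCon and 0.475 and 0.467 in siMYCN cells. MXD4 per MLX was 0.778 in siCon/miRCon, 1.01 in siCon/let-7a, 1.61 in siMYCN/miRCon and 2.28 in siMYCN/let-7a. The order of these 2 genes was therefore the opposite in siMYCN cells and in siCon cells with miRCon. They have the highest and lowest siMYCN estimates of the network genes tested, so a shift of their ratio with siMYCN follows from the choice of genes.

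**Figure D3:**
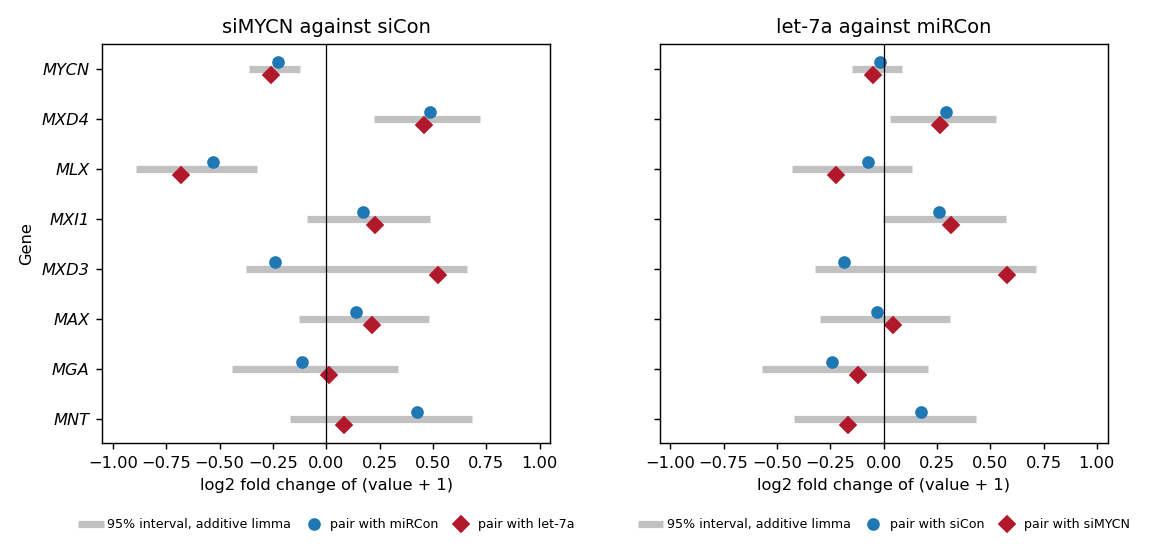
log2 fold changes of (value + 1) for the 8 network genes tested, with siMYCN against siCon on the left and let-7a against miRCon on the right. Points are single pairs of libraries and grey bars the 95% interval of the additive limma model. The siMYCN intervals of MYCN, MXD4 and MLX leave out 0, before adjustment over all genes, and the pairs of MXD3 lie apart. So does the let-7a interval of MXD4 leave out 0 (0.030 to 0.53), also before adjustment.

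With let-7a, limma called 0 genes higher and 0 lower over all 9324 (0% each), with 697 at an unadjusted p under 0.05, of which 1 was a network gene (MXD4). By size, 0.204% of genes were higher and 0.257% lower, and again 0 network genes. MYCN itself was almost level despite its pair of seed matches, at -0.016 with siCon and -0.049 with siMYCN. Over both pairs this was -0.032 ± 0.047 (SE; 95% interval -0.15 to 0.086; adjusted p = 0.872 in limma). Whether the added reading frame carries the MYCN 3' UTR is not stated in the labels, and RNA with and without it cannot be told apart here.

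MXD4 and MXI1, which hold no let-7 seed match, had let-7a effects above 0 in both pairs. MXD4 was at 0.28 ± 0.098 (SE) and MXI1 at 0.29 ± 0.11 (SE), each with an adjusted p of 0.663 in limma. For MXI1 the let-7a libraries were higher without overlap, which 8.90% of all genes tested also were. MGA, with 2 matches, was at -0.24 with siCon and -0.12 with siMYCN, lower without overlap as were 16.2% of all genes. MNT, with 1 match, was at 0.18 with siCon and -0.17 with siMYCN. The 4 genes with a match thus had no common direction over both pairs.

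The relatives and helpers of the network were described through 10 further gene lists. For let-7a, limma called 0 genes in each of them, with at most 3 members of a list at an unadjusted p under 0.05. The let-7a effects of 36 tested MYC-activated genes had 3 above and 19 below 0 in both pairs and a median of -0.076. Those of 14 tested MYC-repressed genes had 7 above and 1 below 0 in both pairs and a median of 0.070. Over all genes the median was -0.031, with 22.6% higher and 33.5% lower in both pairs. Neither list was tested as a set, and the let-7a signs of the other lists are not given. The rest of this account is of siMYCN. Counting signs in the single pairs, 43.2% of all genes tested were higher and 27.4% lower in both siMYCN pairs, and the median log2 fold change over both pairs was 0.056. The 8 tested network genes had 4 higher and 2 lower in both pairs, with medians of 0.013 with miRCon and 0.15 with let-7a, beside 0.069 and 0.048 over all genes. Among other genes of the MYC and MLX arms, 4 of 9 listed were tested and limma called 0. An unadjusted p under 0.05 was reached in limma by 26.4% of all genes tested. It was reached by 2 of these 4, 6 of 18 cofactors, 3 of 18 stability factors, 2 of 12 corepressors, 1 of 8 MGA partners and 2 of 7 MLX targets, and by 16 of 36 MYC-activated, 9 of 14 MYC-repressed, 2 of 7 MYCN locus and 0 of 2 germline genes. The E-box binder TFAP4 was at 0.24 and 0.29, and USF2 at 0.26 and 0.38.

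Of 18 tested MYC cofactors, limma called 0 for siMYCN, 5 were higher and 7 lower in both pairs, and the median was -0.016. The kinase CDK9 and its cyclin CCNT1, which release paused RNA polymerase, were at 0.50 ± 0.11 (SE; adjusted p = 0.0673) and 0.44 ± 0.10 (SE; adjusted p = 0.0762) in limma. CDK9 was at 58.3 and 50.2 in siCon and 74.8 and 79.0 in siMYCN cells. The acetyltransferase KAT2A was at -0.27 and -0.20.

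Of 18 tested factors that control MYCN protein stability, limma called 0, with 4 higher and 7 lower in both pairs and a median of 0.0050 over both pairs, beside medians of -0.069 with miRCon and -0.065 with let-7a in the single pairs. AURKA, the kinase that shields MYCN from degradation, was at 31.2 and 31.4 in siCon and 23.6 and 16.3 in siMYCN cells without and with let-7a (-0.65 ± 0.165 SE, adjusted p = 0.0876 in limma). USP28, a deubiquitinase, was at 31.0 and 28.9 against 20.9 and 12.1 (-0.87 ± 0.19 SE, adjusted p = 0.0662 in limma). FBXW7, the ligase subunit that marks MYC proteins for degradation, was at -0.44 and -0.32. FBXL14, another listed factor, was higher in both pairs, at 0.68 with miRCon and 0.19 with let-7a. For AURKA and USP28 the library with both treatments was the lowest.

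Of 12 corepressor genes used by MXD proteins and MNT, limma called 0, with 7 higher and 1 lower in both pairs and a median of 0.11. The deacetylase HDAC1 was at 110 and 107 in siCon and 80.6 and 83.1 in siMYCN cells (-0.40 ± 0.081 SE, adjusted p = 0.0615 in limma). Its paralog HDAC2 was at 195 and 197 against 226 and 228 (0.21 ± 0.065 SE, adjusted p = 0.120 in limma). Both genes separated the siRNAs without overlap, in opposite directions, but they were named for a large siMYCN change shared by both pairs, which favours this. Over all genes tested, 35.6% were higher and 21.1% lower without overlap.

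Of 8 tested partners of MGA in its Polycomb complex, limma called 0, with 3 higher and 3 lower in both pairs and a median of 0.031. PCGF6, the ring finger protein that defines this complex, was at 41.3 and 41.6 in siCon and 34.6 and 27.3 in siMYCN cells (adjusted p = 0.123 in limma). L3MBTL2 was also lower in both pairs, at -0.15 and -0.34, while TFDP1 (0.14 and 0.15) and TFDP2 (0.13 and 0.60) were higher. Only 2 of 17 listed germline genes that the complex represses were abundant enough to test, and limma called 0 of them. Among 7 tested targets of MLX and MondoA, limma called 0, 4 were higher and 1 lower in both pairs, and the median was 0.090. ARRDC4, a classical target, was at 8.16 and 6.68 in siCon and 11.8 and 8.92 in siMYCN cells, and HK2, a hexokinase, at 37.4 and 38.8 against 45.8 and 50.6.

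Among 36 tested MYC-activated genes limma called 0 higher and 3 lower, where 2.07% of all genes tested were called higher and 1.36% lower. In both siMYCN pairs 8 were higher and 17 lower (22.2% and 47.2%, beside 43.2% and 27.4% of all genes tested), with a median of -0.059. IMPDH2, which makes guanine nucleotides, fell from 199 to 131 with miRCon and from 190 to 127 with let-7a (-0.59 ± 0.069 SE, adjusted p = 0.0312 in limma). CAD, of pyrimidine synthesis, and MDM2, the p53 ligase, also fell, at -0.625 and -1.16 over both pairs. Among 14 tested MYC-repressed genes limma called 2 higher and 1 lower, and the median was 0.10. In both siMYCN pairs 7 were higher and 4 lower (50% and 28.6%, beside the same 43.2% and 27.4% of all genes). CDH2, the neuronal cadherin, rose from 108 to 169 with miRCon and from 112 to 228 with let-7a (0.83 ± 0.11 SE, adjusted p = 0.0344 in limma), CDKN1A rose by 2.07 and CLU fell by 1.53 over both pairs. CDKN1A encodes the cell cycle inhibitor p21 and CLU a secreted chaperone.

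**Figure D4:**
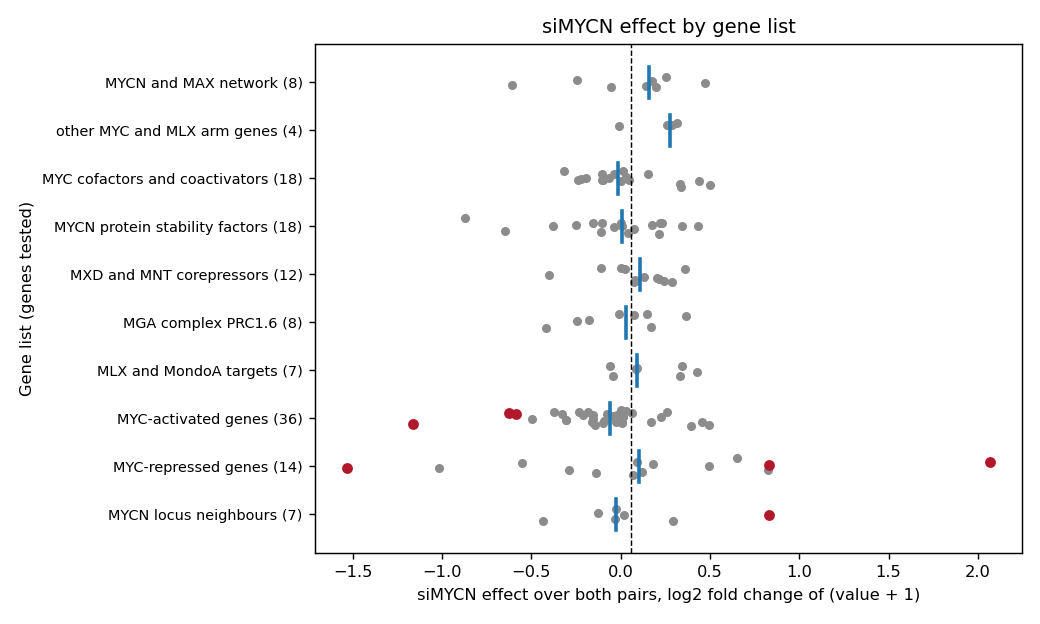
siMYCN effect over both pairs (log2 fold change of value + 1) of each tested gene, by list, for lists with 4 or more tested genes. Red points passed limma over all genes, blue bars are list medians and the dashed line is the median of all genes tested, 0.056. The red points lie only in the MYC-activated, MYC-repressed and MYCN locus lists.

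Genes with a promoter E-box were compared as a class, since a window was found for 82.3% of genes tested. The 1026 tested genes with CACGTG had a median siMYCN effect of 0.064, against 0.057 in 6649 with a window and no E-box. Limma called 20 higher and 8 lower of the 1026, and 140 higher and 84 lower of the 6649, beside 2.07% and 1.36% of all genes tested. These counts come from classes of unlike size. An unadjusted p under 0.05 in limma was reached by 26.0% of the first class and 25.8% of the second. The median let-7a effects of the classes were -0.025 and -0.032. The classes differed by less than the gap between the single pairs, whose medians were 0.073 and 0.061 for the siMYCN effect in E-box genes.

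Genes beside MYCN on chromosome 2 were examined because they can be amplified with it. DDX1, an RNA helicase next to MYCN, was at 345 and 302 in siCon and 338 and 315 in siMYCN cells, and NBAS, a vesicle transport gene beyond it, at 21.2 and 20.3 against 18.6 and 19.1. DDX1 was thus far above NBAS in every library, and its siMYCN effect was 0.017 ± 0.062 (SE; adjusted p = 0.886 in limma). FAM49A was at 0.151 or less. Of 7 tested genes in the wider region limma called 1 higher, TRIB2, a pseudokinase, where 2.07% of all genes tested were called higher. TRIB2 rose from 92.5 to 161 with miRCon and from 96.2 to 177 with let-7a (adjusted p = 0.0263 in limma).

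The table also has rows for vector genes. The kanamycin selection row was at 195 and 221 in siCon and 196 and 225 in siMYCN cells without and with let-7a, level between the siRNAs. MYCN per this row was 7.43, 6.48, 6.33 and 5.31 in siCon/miRCon, siCon/let-7a, siMYCN/miRCon and siMYCN/let-7a. The labels do not tie this row to the MYCN construct.

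The genes whose profile over the 4 libraries was most like that of MYCN, among 5671 others with a mean of at least 20, were FBXO18, PTGES3, NUP210, EFCAB14 and DRG1. Their Euclidean distances on centred log2(value + 1) were 0.00515, 0.0183, 0.0244, 0.0267 and 0.0321. Within a distance of 0.1 lay 156 of the 5671 genes, so MYCN was not alone in a profile of this shape.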

How the data were processed

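PolyA RNA was sequenced from 4 libraries, 1 in each group given by the labels. The deposited values are natural logs, with the base settled from the values: exp(x) - 1 sums to nearly the same total in each library, as TPM does, where base 2 gives 143211 to 147588. The submitters' processing notes name HISAT 0.1.6, Salmon 0.3.2 and GRCh38, with no role. The sources used here give no annotation, strand setting or filter, so RNA of overlapping antisense genes cannot be told apart. Rows for vectors (11) and spike-in controls (92) were set apart, and 28 rows with date-like names were kept unnamed.

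limma 3.58.1 (R 4.3.3) was fitted with a trend to log2(value + 1) of 9324 genes with siRNA and mimic as additive terms, and p-values were adjusted by Benjamini-Hochberg over all of them. The fit has 1 residual degree of freedom and 4.30 prior degrees of freedom, so its errors rest largely on other genes and assume additive effects. Such p-values are not a replicate check, and fold changes understate those of low genes. Network genes and lists were chosen with earlier results of these data known. Named genes were all network genes, list members called by limma or otherwise up to 4 with the largest shared siMYCN change, NBAS, DDX1 and FAM49A, and 5 genes closest to MYCN. Some genes that this rule names are left out. Besides these, MYCL, MLXIP, MLXIPL and the cell type markers were named after their values were seen. The alternatives took each pair alone, dropped limma's trend, rescaled by median ratios, raised the filter to 20 or dropped it, and set the pseudocount to 0.1 or 5. Python 3.11.15 and pandas 2.3.3 were used.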

Additional observations from a re-analysis of the deposited data

Results flagged for a closer look

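Effects of opposite sign in the 2 pairs of libraries were found for 4 of the 8 network genes tested, 2 for siMYCN (MXD3 and MGA) and 3 for let-7a (MAX, MXD3 and MNT). Over all genes tested 29.4% had opposite signs for siMYCN and 44.0% for let-7a, so these counts are no result about the network, and none of these differences was tested, since each group is 1 library. MXD3 had a difference of 0.77 (log2) between the siMYCN effects with let-7a and with miRCon, which is also the difference between its let-7a effects. The let-7a effects of MNT differed by -0.34 and those of MAX by 0.073, and the siMYCN effects of MGA by 0.12. The median absolute difference over all genes tested was 0.19, which those of MAX and MGA do not reach.

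Signal also appeared in vector rows outside the gene comparisons. The kanamycin selection row reached 225 and the ampicillin selection row 4.16, while the other 9 rows are listed at 0.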

How the results depend on the processing

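The labels give no replicate numbers, so replicates could not be paired, and the pairs of the additive model are libraries that share a mimic or an siRNA. Leaving out 1 library leaves no residual degree of freedom, so that single pairs are values with no test. Of 76 fitted alternative values for network genes, 70 kept their direction and side of the threshold. Of 32 single-pair values, 22 kept their direction within 1 SE, 5 reversed, and 5, of MXD3 or MNT, moved by more than 1 SE. For each gene all single-pair values lie equally far from their estimate, and before limma pools errors over genes that distance is the SE itself. The counts within 1 SE are therefore neither independent nor a check of the estimates. MYCN passed for siMYCN at a mean of at least 20 (-0.24) and with rescaled values (-0.30), as did MLX (-0.61 and -0.67), and MXD4 passed at a mean of at least 20 (0.47). Signs reversed for the siMYCN effect of MXD3 with miRCon (-0.24) and MGA with let-7a (0.010), and for the let-7a effect of MAX (-0.030) and MXD3 (-0.19) with siCon, MNT with siMYCN (-0.17) and MYCN with rescaled values (0.0020). Over all genes, siMYCN calls were 0 higher and 0 lower with no filter and also without a trend (2791 and 2221 at an unadjusted p under 0.05 in limma), 310 and 196 at a mean of at least 20, and 343 and 408 with rescaled values. By size, a pseudocount of 5 gave 128 higher and 96 lower for siMYCN, 8 and 9 for let-7a, and 35 and 39 for the difference, and a mean of at least 20 gave 105 and 74, 1 and 4, and 10 and 19. The E-box medians were 0.0057 (siMYCN) and 0.0082 (let-7a) with rescaled values, which moved the median of all genes by -0.059 and 0.033. The cause of these changes was not tested, except that a stricter filter tests fewer genes. Unknown depth leaves no counting error for MYC, MYCL and other genes near 0.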

Other observations

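The Polycomb partners of MGA were unequal in level. CBX3, a heterochromatin protein, was at 510 to 575, whereas E2F6, the factor that brings the complex to DNA together with MGA, was at 0.141 or less in every library and RING1 was listed at 0 in all 4. RNF2, the paralog of RING1, was at 28.0 to 39.4. RYBP was at 2.31 to 3.36 and its paralog YAF2 at 16.4 to 19.7. These genes were named after their values were seen, and a listed 0 can be a failed estimate.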
